A study of Mus musculus with 6 samples.

Results

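The genes described here mark the white blood cells of the mouse testis: macrophages, T cells, B cells and neutrophils, together with some of the signals that recruit and sustain them. Of 33 genes listed, 32 were measured, by 51 probe sets among the 45037 on the array, each probe set carrying exactly 1 gene symbol. The T cell kinase gene Lck was not analysed here. Expression was measured on Affymetrix arrays in total RNA of whole testis from mice aged 5 weeks, with 3 arrays from wild-type mice and 3 from Phf13 knockout mice. The labels used here name neither the strain nor how the knockout allele was made, and they do not say whether each array came from a different animal. The p-values below therefore measure only the spread between these arrays, which may be technical.

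Macrophages are the most common leukocytes of the testis. They live in the interstitium beside Leydig cells and on the walls of the seminiferous tubules, and they depend on the growth factor CSF1, which acts through the receptor encoded by Csf1r. Their precursors are specified by the transcription factor PU.1, the product of Spi1, and mature cells carry scavenger receptors, Fc receptors and the C1q components of complement. T and B cells are normally scarce in the healthy testis, and neutrophils reach it mainly with the blood. Because the tissue was not sorted, a change in the number of cells of a type and a change in RNA per cell cannot be told apart in any value given here. Nor do the values show which cells gave the signal of a gene. The level of a probe set depends on its own probes, so levels are compared between arrays and not between genes. The only exception is a rough reading of probe sets and lists as bright or dim.

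Phf13 itself, which encodes a reader of methylated histone H3, stood between 9.47 and 9.56 on the log2 scale in wild type and between 6.55 and 6.71 in knockout. Spermatid markers (list mean 13.22 in wild type) and spermatocyte markers (10.30) were bright, and epididymis markers averaged 3.60. The codes in the array titles, whose meaning the labels do not give, form 3 runs of consecutive numbers. The last run is called set 2 here and the earlier ones together set 1. Set 1 held wild type 1, wild type 2 and knockout 1, and set 2 held wild type 3, knockout 2 and knockout 3. The 18S ribosomal RNA control probe sets averaged 12.03 to 12.67 in set 1 and 9.69 to 10.71 in set 2, and the actin controls differed between their 3' and 5' probe sets by 0.75 to 0.89 in set 1 and by 0.56 to 0.59 in set 2. Differences between knockout and wild type inside each set are given for the gene lists and for several genes.

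Across the leukocyte genes, 1 fell in the knockout and no other passed the threshold. Map4k1, a kinase gene of blood cells, fell by 0.78 on the log2 scale. Which cells of the testis gave its signal was not tested. Of the other 31 genes, 29 had a positive difference, 1 a negative one and 1 a difference of 0, with none past the threshold, which is a limma adjusted p under 0.05 over all probe sets. Among all 51 probe sets, 0 were called higher, where 0.0555% of the array was, and 1 was called lower, where 0.0444% was. At an unadjusted p under 0.05 in limma, 4 were higher and 2 lower. These 6 make 11.8% of the leukocyte probe sets against 15.1% of the whole array. The 3 knockout and 3 wild-type arrays did not overlap in 8 of the 51, or 15.7%, against 19.3% of the array. Both of these last shares lay below those of the whole array, so apart from Map4k1 the leukocyte probe sets were not called more often than others.

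Most of the differences had a positive sign. With 1 probe set per gene, the one with the highest mean over the 6 arrays, 29 of 32 genes (90.6%) lay above 0, against 51.3% of all 18193 genes. The median difference was 0.21, against 0.01 over all genes. It was 0.35 without knockout 1, 0.11 without knockout 3 and 0.13 with the array set as a block. Inside array set 1 the median was 0.02, with 17 of 32 genes above 0, and inside set 2 it was 0.22, with 27 of 32 above 0. Genes of one cell type share their source, so a common sign is not 29 separate observations.

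**Figure D1:**
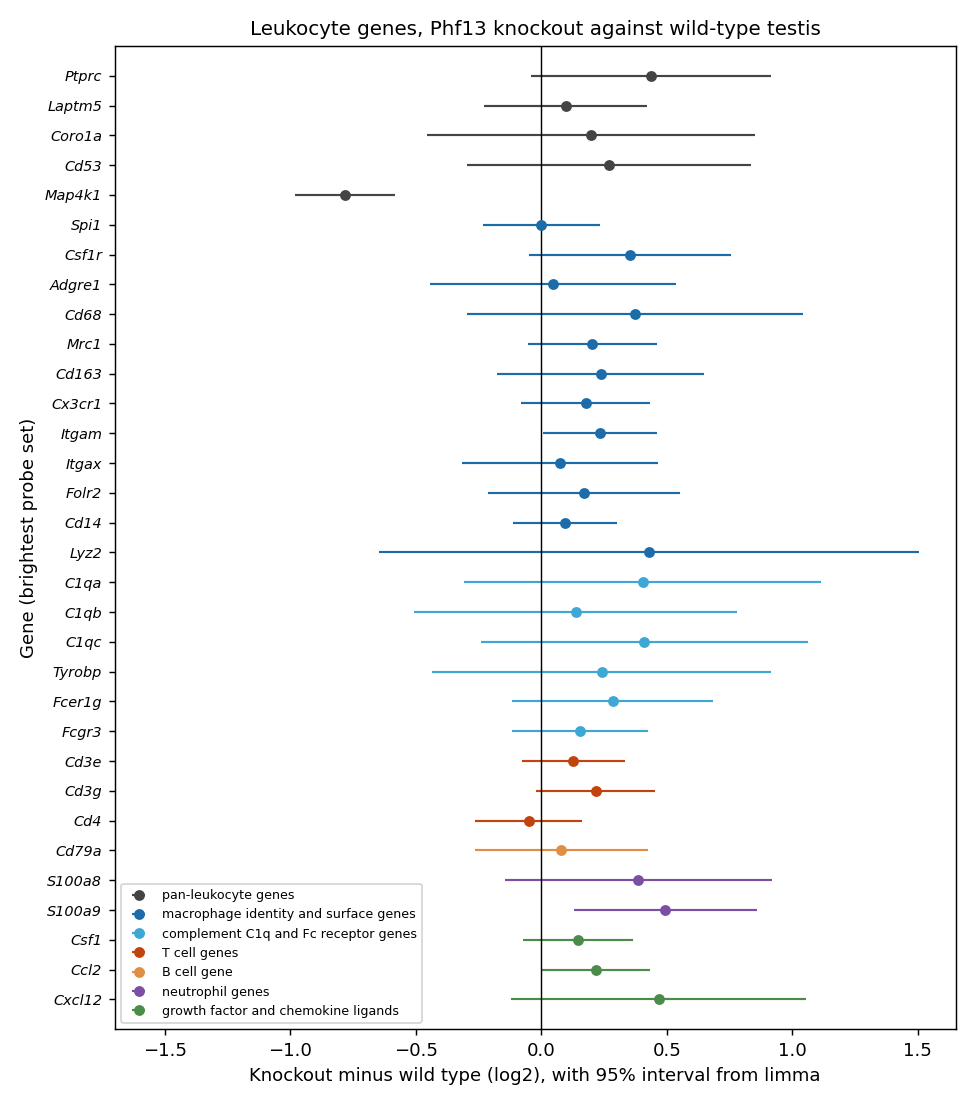
Difference between knockout and wild type (x axis, log2, 3 arrays each) for the brightest probe set of each of the 32 leukocyte genes (y axis), with the 95% interval from limma as bars and the gene's role as colour. Map4k1 lies at -0.78 and is the only gene past the threshold, while 29 genes lie above 0 with wide intervals.

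Map4k1 encodes a kinase, also called HPK1, that restrains signalling from antigen receptors in T and B cells and acts upstream of the JNK pathway. Its only probe set stood at 8.65, 8.73 and 8.83 in wild type 1, 2 and 3 and at 7.95, 7.94 and 7.97 in knockout 1, 2 and 3. All knockout arrays lay within 0.03 of each other and below every wild-type array. The fall was 1.72-fold (limma adjusted p = 0.0211, interval from -0.98 to -0.58), and it was present in both array sets, at -0.74 in set 1 and at -0.88 in set 2. Leaving out single arrays ended the call for wild type 1 (limma adjusted p = 0.0803), wild type 2 (0.159), knockout 2 (0.14) and knockout 3 (0.136), as did a fit with the 3 runs of title codes as a block (0.129), while the difference stayed between -0.83 and -0.74. It passed without wild type 3 (0.0102), without knockout 1 (0.045) and with the array set as a block (0.0336).

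No other measured leukocyte gene and no measured relative of Map4k1 passed the threshold. Of the other 4 pan-leukocyte genes, 0 passed the threshold and all 4 had positive differences. Relatives of Map4k1 were read from 4 measured genes of 6 listed, of which 0 passed in either direction. Map4k2 and Map4k3 were not analysed here. Tnik differed by 0.34 (limma adjusted p = 0.22), Map4k5 by -0.18 (0.377), Map4k4 by 0.39 and Mink1 by 0.00. RefSeq gives Map4k1 a pair of start sites, and the 250 bases before each are printed because this was the only gene called. They were searched on both strands for GAGGAA, the PU.1 form of the shorter GGAA core of ETS factors, and neither window holds GAGGAA. Both windows hold the shorter GGAA, which was not counted. Both are on build GRCm38.p6, plus strand, at chr7:28981800-28982049 and chr7:28982604-28982853.
Map4k1, first start: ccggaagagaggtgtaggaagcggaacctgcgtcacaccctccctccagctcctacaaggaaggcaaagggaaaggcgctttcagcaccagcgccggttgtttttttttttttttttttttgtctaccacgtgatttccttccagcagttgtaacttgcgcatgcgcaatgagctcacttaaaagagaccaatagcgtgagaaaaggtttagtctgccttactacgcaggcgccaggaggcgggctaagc
Map4k1, second start: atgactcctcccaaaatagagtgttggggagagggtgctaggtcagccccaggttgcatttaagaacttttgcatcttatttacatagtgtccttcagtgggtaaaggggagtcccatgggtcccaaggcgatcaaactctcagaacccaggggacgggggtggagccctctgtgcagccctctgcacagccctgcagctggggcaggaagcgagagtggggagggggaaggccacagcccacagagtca

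**Figure D2:**
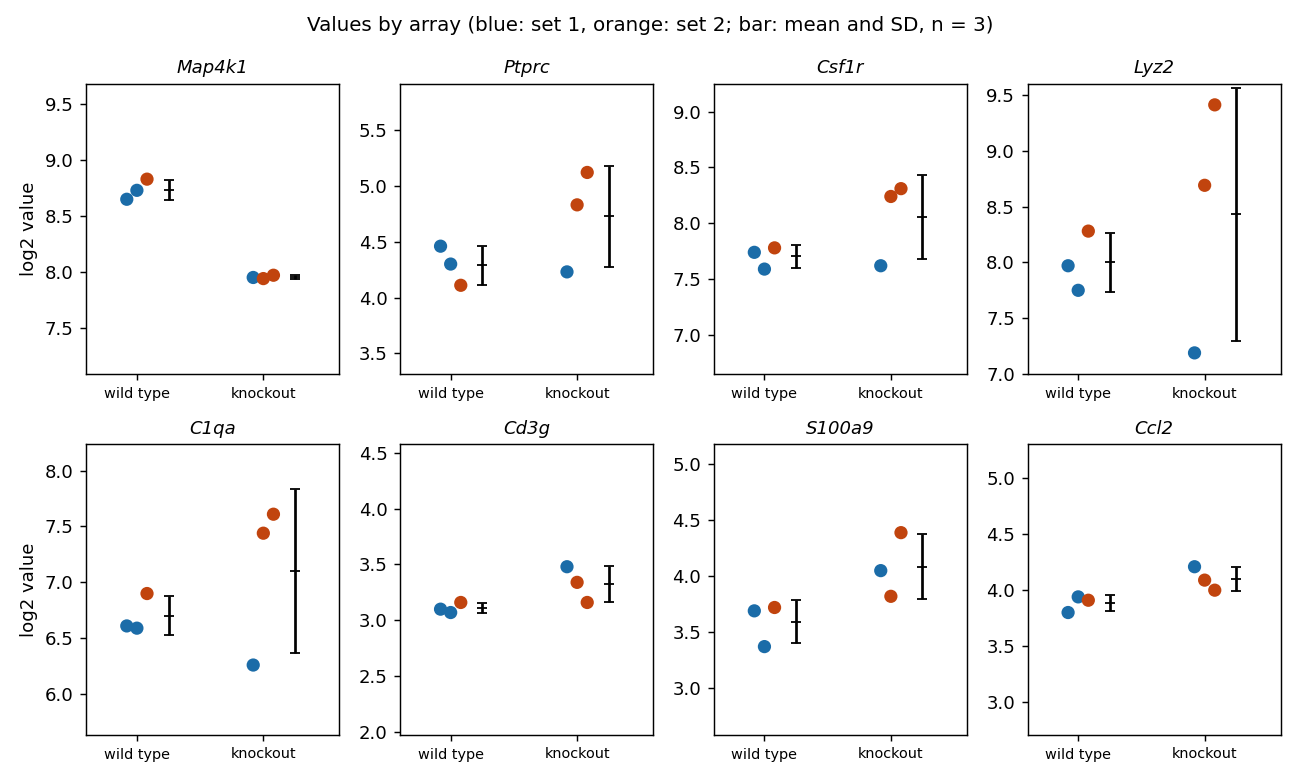
Log2 value (y axis) on each array of 8 leukocyte genes in wild type and knockout (x axis), with array set 1 in blue, set 2 in orange, and the mean and SD of 3 arrays as bars. Each panel spans the same number of log2 units. The knockout arrays of Map4k1 lie between 7.94 and 7.97, below all wild-type arrays, whereas those of Lyz2 spread from 7.19 to 9.41.

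The remaining pan-leukocyte genes varied more between arrays than between genotypes. Ptprc, which encodes the surface phosphatase CD45, stood at 4.46, 4.30 and 4.11 in wild type 1, 2 and 3 and at 4.23, 4.83 and 5.12 in knockout 1, 2 and 3. Knockout 2 and 3 were above all wild-type arrays and knockout 1 was among them. The difference was 0.44 (interval from -0.04 to 0.92, limma adjusted p = 0.369), made up of -0.15 in set 1 and 0.86 in set 2. A second, dim Ptprc probe set differed by 0.15.

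Coro1a, which encodes the actin-binding protein coronin of blood cells, stood at 4.86, 5.08 and 5.04 in wild type and at 4.47, 5.28 and 5.82 in knockout, so that its knockout arrays lay on both sides of the wild-type ones. Cd53, a tetraspanin gene, differed by 0.27 (interval from -0.30 to 0.84) and was higher in set 2 than in set 1 by 0.67 with genotype in the fit. Laptm5, which encodes a lysosomal protein that limits antigen receptor signalling, had 5 probe sets with differences from 0.05 to 0.10. Its brightest probe set was highest in knockout 1, at 6.86, whereas 3 of the other 4 were lowest there. The probe sets of Cd53 and Coro1a also disagreed: the dimmest ones differed by -0.15 and -0.23, and that of Coro1a did not overlap between groups. Both of these lay below the lower quartile of every array.

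Genes that give macrophages their identity and surface receptors were measured by 12 genes, of which 11 lay above 0 and 0 passed the threshold, with a median difference of 0.19. Spi1 had equal means in the genotypes, 5.46 ± 0.12 and 5.46 ± 0.11 (SD, n = 3 each), with an interval from -0.23 to 0.23. Csf1r, the receptor for CSF1, stood at 7.74, 7.59 and 7.78 in wild type and at 7.62, 8.24 and 8.31 in knockout. Knockout 1 was inside the wild-type range and the others above it. The difference was 0.35 (interval from -0.05 to 0.75, limma adjusted p = 0.382). It passed when arrays were weighted by their quality in limma (0.54, adjusted p = 0.039), a fit that gave knockout 1 the lowest weight, 0.383 against 0.601 to 2.74 for the others. The remaining Csf1r probe sets differed by 0.14 and 0.02.

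Adgre1 encodes F4/80, the classical surface marker of mouse macrophages. It stood at 5.72, 5.60 and 5.71 in wild type and at 5.15, 6.03 and 5.99 in knockout, the lowest and the highest values of all 6 arrays both being knockouts. The difference was 0.05 (interval from -0.44 to 0.54). Mrc1, the mannose receptor gene, had 7.52, 7.51 and 7.72 in wild type and 7.62, 7.94 and 7.80 in knockout. Its difference of 0.20 (interval from -0.05 to 0.46) was near equal in the sets, at 0.10 and 0.15. Lyz2, which encodes lysozyme, varied most: 7.97, 7.75 and 8.28 in wild type against 7.19, 8.69 and 9.41 in knockout. The extremes of Lyz2 were again knockout arrays, and its difference of 0.43 had an interval from -0.65 to 1.51.

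The other surface genes were also above 0 without passing. The scavenger receptor genes Cd68 and Cd163 differed by 0.37 and 0.24, the chemokine receptor gene Cx3cr1 by 0.18, the folate receptor gene Folr2 by 0.17, and the endotoxin coreceptor gene Cd14 by 0.09. Of the integrin genes, Itgax differed by 0.07 and Itgam, which encodes CD11b, by 0.23. Itgam was the single gene of these 12 with groups that did not overlap, at 2.55, 2.66 and 2.75 in wild type and 2.83, 2.81 and 3.02 in knockout (limma adjusted p = 0.322). All 6 values of Itgam lay below the lower quartile of their array, which ran from 3.66 to 3.75, so it was read near the floor of the measurement.

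Complement C1q and Fc receptor genes also varied widely between the knockout arrays. C1qa, C1qb and C1qc encode the chains of C1q, which tags debris and immune complexes for clearance. C1qa stood at 6.61, 6.59 and 6.90 in wild type and at 6.26, 7.44 and 7.61 in knockout. C1qc stood at 6.65, 6.49 and 6.98 in wild type and at 6.38, 7.44 and 7.53 in knockout. For both, knockout 1 was the lowest of the 6 arrays and knockout 2 and 3 the highest. The differences were 0.40 for C1qa (interval from -0.31 to 1.12) and 0.41 for C1qc (interval from -0.24 to 1.06), and neither passed (limma adjusted p = 0.574 and 0.53).

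The brightest of 3 C1qb probe sets was likewise lowest in knockout 1 and highest in knockout 3, with 7.51, 7.44 and 8.04 in wild type and 7.14, 7.97 and 8.29 in knockout. Its difference was 0.14, and those of the others were -0.02 and 0.34. Tyrobp and Fcer1g encode the adaptors that carry signals from activating receptors, and Fcgr3 encodes a low-affinity receptor for IgG. Tyrobp had 6.02, 5.81 and 6.10 in wild type and 5.42, 6.51 and 6.72 in knockout, with knockout 1 again lowest. Fcer1g differed by 0.28 and Fcgr3 by 0.15. All 6 genes of the group were above 0, with a median of 0.26, and 0 passed the threshold. Laptm5 and the 3 C1q genes lie on chromosome 4, the chromosome that carries Phf13.

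Promoters of 5 macrophage genes are printed: C1qb, C1qc, Lyz2 and Cd68 because each was lowest in knockout 1 and highest in knockout 3, and Mrc1 because it holds the most matches among the genes shown. The windows are the 250 bases before the start in RefSeq, build GRCm38.p6, with GAGGAA or its reverse complement TTCCTC in capitals. Of the 32 measured genes, 24 had a promoter in the table. GAGGAA was found in 12 of these 24 (50%), in 6 of 12 macrophage lineage genes (50%) and in 2 of 3 T and B cell genes (66.7%), against 25.9% of 27025 genes with a window of the same length. The match is a description of letters, and its share was not tested. C1qb holds 1 match, 30 bases before its start, C1qc holds 1 at 193 bases, Cd68 holds 1 at 225 bases, Mrc1 holds 3, at 180, 167 and 35 bases, and Lyz2 holds 0 in this window.
C1qb, chr4:136886201-136886450, minus strand: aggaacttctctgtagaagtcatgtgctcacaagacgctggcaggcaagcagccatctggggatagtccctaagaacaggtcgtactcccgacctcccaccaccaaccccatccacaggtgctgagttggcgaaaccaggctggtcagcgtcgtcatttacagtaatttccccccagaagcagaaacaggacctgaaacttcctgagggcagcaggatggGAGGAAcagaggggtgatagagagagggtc
C1qc, chr4:136892915-136893164, minus strand: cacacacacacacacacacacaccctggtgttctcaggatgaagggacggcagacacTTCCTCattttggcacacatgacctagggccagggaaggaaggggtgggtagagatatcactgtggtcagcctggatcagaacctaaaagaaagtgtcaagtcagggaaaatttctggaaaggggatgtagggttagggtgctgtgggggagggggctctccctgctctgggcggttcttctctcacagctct
Mrc1, chr2:14229164-14229413, plus strand: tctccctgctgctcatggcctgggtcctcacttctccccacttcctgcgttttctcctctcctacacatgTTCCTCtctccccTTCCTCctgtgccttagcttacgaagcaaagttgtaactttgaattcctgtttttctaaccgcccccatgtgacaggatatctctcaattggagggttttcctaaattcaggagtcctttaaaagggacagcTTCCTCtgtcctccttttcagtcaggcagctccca
Lyz2, chr10:117282273-117282522, minus strand: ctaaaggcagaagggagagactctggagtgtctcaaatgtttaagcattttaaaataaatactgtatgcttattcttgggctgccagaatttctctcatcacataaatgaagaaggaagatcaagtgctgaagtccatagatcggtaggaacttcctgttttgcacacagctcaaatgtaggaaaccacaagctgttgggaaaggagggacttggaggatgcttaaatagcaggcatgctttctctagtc
Cd68, chr11:69666171-69666420, minus strand: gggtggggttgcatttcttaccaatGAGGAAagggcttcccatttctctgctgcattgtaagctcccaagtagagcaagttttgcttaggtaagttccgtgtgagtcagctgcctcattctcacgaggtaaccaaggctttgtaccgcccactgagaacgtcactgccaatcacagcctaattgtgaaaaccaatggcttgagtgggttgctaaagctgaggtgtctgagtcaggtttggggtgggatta

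T and B cell genes followed another order of arrays. Cd3e and Cd3g encode chains of the CD3 complex that signals for the T cell receptor, Cd4 the coreceptor of helper T cells, and Cd79a a signalling chain of the B cell receptor. Cd3g stood at 3.10, 3.07 and 3.16 in wild type and at 3.48, 3.34 and 3.16 in knockout. Cd79a stood at 4.03, 4.22 and 3.99 in wild type and at 4.49, 3.91 and 4.08 in knockout. In the brightest probe set of all 4 genes, knockout 1 was the highest of the 6 arrays. The lead was narrow for Cd4, at 5.72 against 5.70 in wild type 1, and for Cd3e, at 6.08 against 6.04 in knockout 3. The second Cd4 probe set was highest in wild type 3, at 4.32 against 4.14 in knockout 1. The differences were 0.22 for Cd3g (interval from -0.02 to 0.45, limma adjusted p = 0.365), 0.13 for Cd3e, 0.08 for Cd79a and -0.05 for Cd4. The median of the 4 was 0.10, and it was 0.0067 without knockout 1 and 0.18 without knockout 2. Cd3g lay below the lower quartile on all 6 arrays.

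The neutrophil genes S100a8 and S100a9 encode the paired subunits of calprotectin. S100a9 stood at 3.69, 3.37 and 3.72 in wild type and at 4.05, 3.82 and 4.39 in knockout, so the groups did not overlap. The difference was 0.49 (interval from 0.13 to 0.86) with a limma adjusted p = 0.243, which did not pass. S100a8 stood at 2.84, 2.64 and 2.67 in wild type and at 2.84, 2.75 and 3.72 in knockout, where knockout 3 alone was far above the rest. Without knockout 3 the S100a8 difference was 0.08 and that of S100a9 was 0.34. Red blood cell markers, had 1 of 4 genes above 0, 2 below and 1 at 0, and their list mean ran from 4.54 to 4.70 in wild type and from 4.54 to 4.65 in knockout. Of these 4, Hba-a1 and Slc4a1 lay below the lower quartile on all 6 arrays, so the list says little about blood in the tissue.

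Ligands that attract or sustain leukocytes were all above 0 and none passed. Csf1 was read by 4 probe sets with differences of 0.15, 0.01, 0.28 and -0.15. In 3 of them the groups did not overlap, 2 with higher and 1 with lower knockout arrays, so the probe sets of this gene disagreed in direction. The brightest stood at 5.75, 5.77 and 5.73 in wild type and at 5.81, 5.83 and 6.05 in knockout. The second ligand of the same receptor, Il34, differed by -0.01.

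Ccl2, a chemokine gene for monocytes, stood at 3.80, 3.94 and 3.91 in wild type and at 4.21, 4.09 and 4.0 in knockout, without overlap (difference 0.22, interval from 0.00 to 0.43, limma adjusted p = 0.328). Cxcl12, which encodes the ligand of the receptors CXCR4 and ACKR3, stood at 6.13, 6.55 and 6.84 in wild type and at 6.40, 7.30 and 7.22 in knockout. Its difference of 0.47 had an interval from -0.12 to 1.05, and the other Cxcl12 probe sets differed by 0.06 and 0.18. The receptor genes Cxcr4 and Ackr3 differed by 0.36 and 0.46 (limma adjusted p = 0.264 and 0.265), with groups that did not overlap. Of 9 genes that are ligand partners, 7 were above 0, 0 passed the threshold in either direction, and the median was 0.08.

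The arrays with the highest and lowest values were counted for each cell type. In 16 of 18 macrophage lineage genes (88.9%) the highest array was knockout 2 or knockout 3, against 31.9% of all genes. The same held for 5 of 6 Leydig markers (83.3%), 3 of 4 adipose markers (75%) and 5 of 8 peritubular and stroma markers (62.5%). It held for fewer endothelial (30%) and spermatocyte markers (16.7%). A tie for the highest or lowest value was counted for no array, also over all genes. This matters for the Sertoli markers, counted at 25%. Cldn11 tied at 9.65 in knockout 2 and 3, Fshr at 6.29 in knockout 1 and 2, and Sox9 at 6.56 in knockout 1 and 3. In 8 of the 18 macrophage lineage genes (44.4%) the lowest was knockout 1, against 24.1% of all genes and 33.3% of Leydig markers. In 4 of 4 T and B cell genes the highest was knockout 1, narrowly so for Cd4 and Cd3e, against 16.8% of all genes and 1 of 4 epididymis markers. Knockout 1 also had the highest lower quartile of the 6 arrays, 3.75, and the lowest upper quartile, 7.22 against 7.32 to 7.35. What this does to the values of dim genes was not tested. The mean of the macrophage lineage genes was 6.01, 5.91 and 6.20 in wild type 1, 2 and 3 and 5.86, 6.39 and 6.54 in knockout 1, 2 and 3. The mean of the T and B cell genes was 4.70, 4.69 and 4.66 in wild type and 4.94, 4.69 and 4.70 in knockout. Both means of the knockouts were above those of the wild types, but the macrophage one rested on knockout 2 and 3 and the lymphocyte one on knockout 1. Each pattern is read from the same 6 arrays, and the difference between the cell types was not tested.

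**Figure D3:**
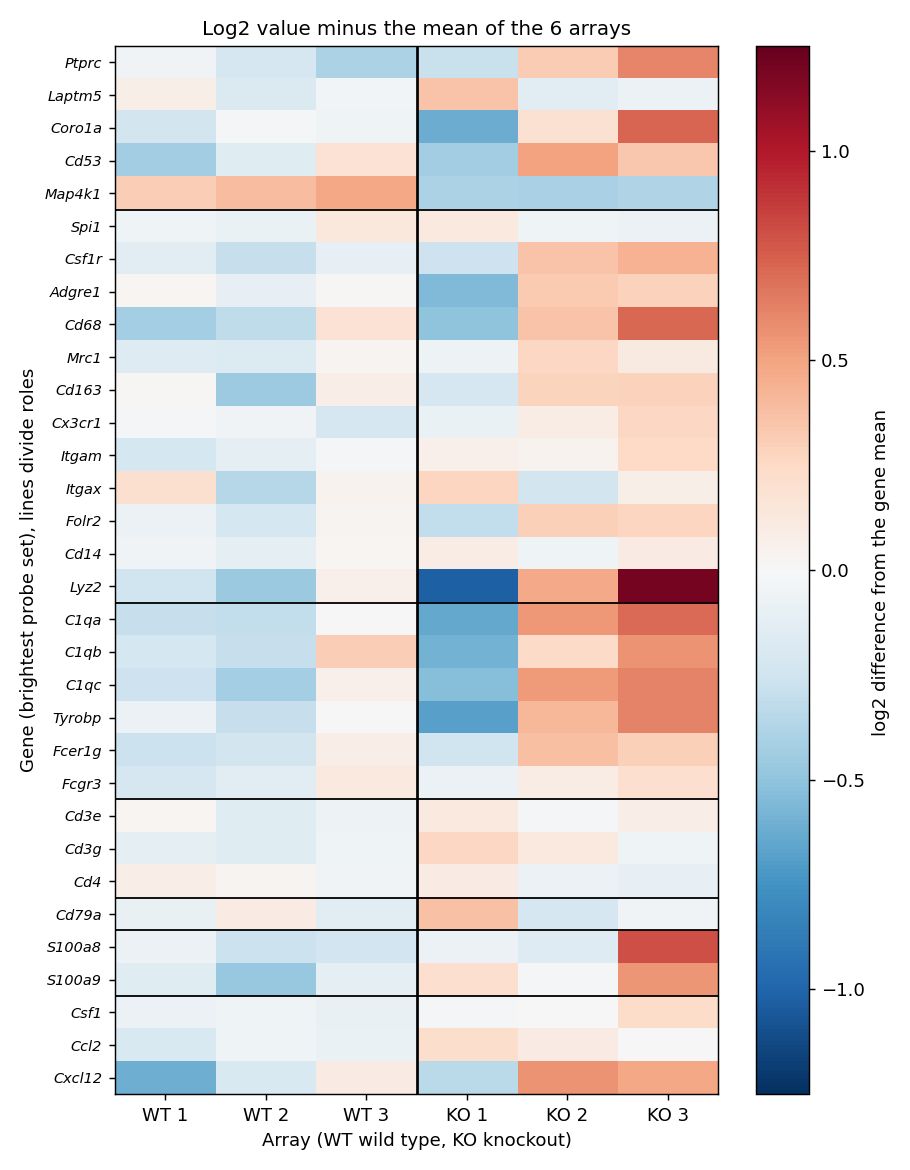
Log2 value minus the mean of the 6 arrays (colour) for the brightest probe set of each leukocyte gene (rows, divided by role) on each array (columns, wild type left and knockout right of the thick line). C1qa, C1qb, C1qc, Tyrobp and Lyz2 are lowest in knockout 1 and highest in knockout 3, T and B cell genes are highest in knockout 1, and Map4k1 is low in all 3 knockout arrays.

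Knockout and wild type were then compared inside each array set. For the macrophage lineage genes the median difference was -0.05 in set 1, with 7 of 18 above 0, and 0.25 in set 2, with 16 of 18 above 0. For the T and B cell genes it was 0.28 in set 1, with 4 of 4 above 0, and 0.05 in set 2, with 3 of 4 above 0. Other lists also differed between the sets. For the Leydig markers the median was -0.03 in set 1 and 0.26 in set 2. For the epididymis markers, a dim list, it was 0.255 in set 1, with 4 of 4 above 0, and -0.30 in set 2, with 0 of 4 above 0. Lyz2 differed by -0.67 in set 1 and by 0.77 in set 2, Adgre1 by -0.51 and 0.30, and C1qa by -0.34 and 0.62. Coro1a differed by -0.50 and 0.51, C1qc by -0.19 and 0.50, and Cxcl12 by 0.06 and 0.42. Set 1 has a single knockout array and set 2 a single wild-type array, so each of these values rests on 3 arrays.

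The difference of the genotype effect between the sets was tested by a limma interaction of genotype and set, which leaves 2 residual degrees of freedom. Knockout 1 and wild type 3 each stand alone in this fit, so its spread comes only from the other 4 arrays, and a value particular to either array cannot be told apart from a difference between sets. An unadjusted p under 0.05 was found for 18 of 51 leukocyte probe sets (35.3%), with 14 toward a larger difference in set 2, against 13.2% of the array. After adjustment 0 passed in limma, the smallest adjusted p among them being 0.0909, and over the whole array 1 probe set passed. Set 2 itself was higher than set 1, with genotype in the fit, in 19 of the 20 leukocyte probe sets with an unadjusted p under 0.05, which are 39.2% of the 51, against 15.3% of the array. Of these, 0 passed after adjustment in limma (smallest adjusted p = 0.0551), as 0.06% of the array did. The 18S level and the actin difference given above move with the sets, and their part in these values was not tested.

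**Figure D4:**
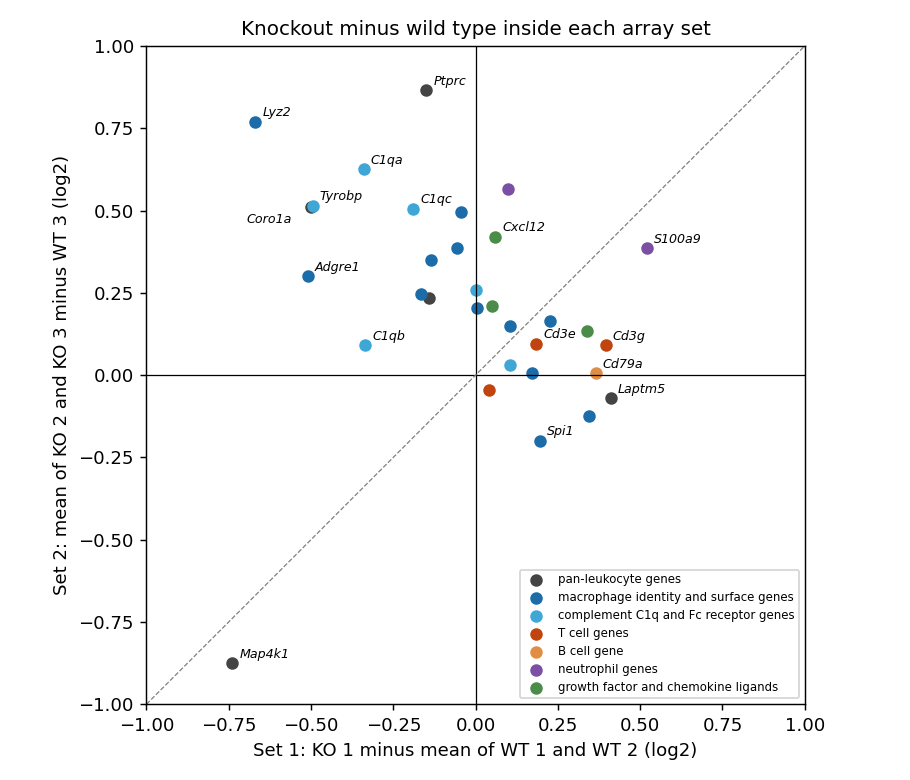
Knockout minus wild type (log2) inside array set 1 (x axis) and inside array set 2 (y axis) for the 32 leukocyte genes, coloured by role, with equal differences on the dashed line. Map4k1 lies near that line at -0.74 and -0.88, C1q and macrophage genes lie mostly above it, and T and B cell genes below it.

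Further genes of the same cells, which are not among the 33, were read beside them. Of 24 other macrophage genes, 21 were above 0 and 0 passed the threshold, with a median of 0.16, and 4 (16.7%) were higher at an unadjusted p under 0.05 in limma, against 8.58% of all genes. Knockout 1 was the lowest array in 6 of these 24 (25%), close to the 24.1% of all genes, and the highest in 5 (20.8%). Knockout 2 or 3 was highest in 13 (54.2%). Ctss, Ctsc, Vsig4 and the dim Timd4 were lowest in knockout 1 and highest in knockout 3, as the C1q genes were. Irf8 and Hpgds were lowest in knockout 1 but not highest in knockout 3. The median difference of the list was 0.05 in set 1, with 15 of 24 above 0, and 0.22 in set 2, with 21 of 24 above 0. Mpeg1, which encodes the pore-forming protein perforin-2, stood at 6.94, 7.05 and 7.16 in wild type and at 7.33, 7.46 and 7.60 in knockout, and Clec7a, a receptor gene for fungal glucans, differed by 0.25. Mpeg1 differed by 0.34 in set 1 and by 0.37 in set 2 (0.41 in all, limma adjusted p = 0.199), so it was not low in knockout 1 as the C1q genes were. Of 19 other T, B and NK cell genes, 16 were above 0 and 0 passed, with a median of 0.08 and knockout 1 highest in 9 (47.4%). Ms4a1, which encodes CD20 of B cells, differed by 0.71 in set 1 and by 0.20 in set 2 (0.44 in all, limma adjusted p = 0.217), and Cd5 by 0.26 in all.

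**Figure D5:**
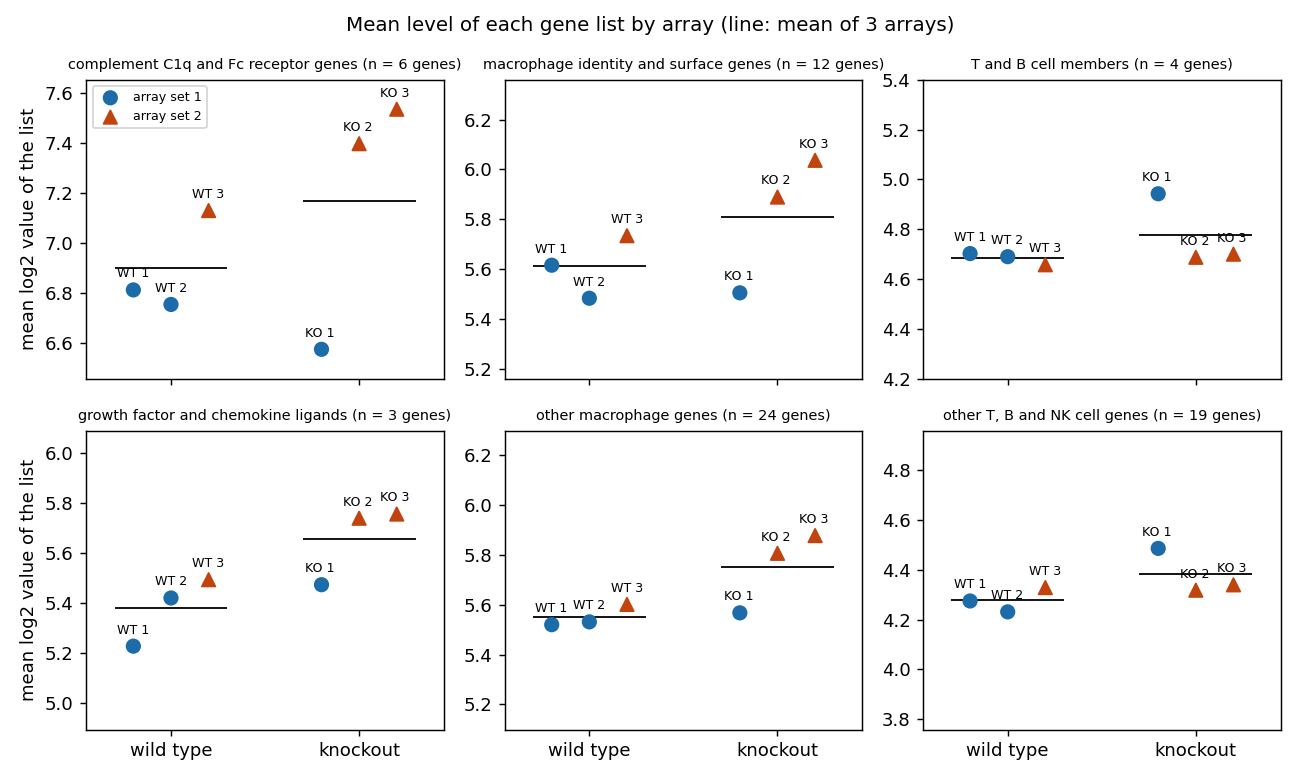
Mean log2 value (y axis) of 6 gene lists on each array, in wild type and knockout (x axis), with set 1 as blue circles, set 2 as orange triangles and the mean of 3 arrays as a line; each panel spans the same number of log2 units. Knockout 1 is the lowest array for the C1q and Fc receptor genes, at 6.57, and the highest for the T and B cell genes, at 4.94.

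Markers of other testis cells were read on the same arrays. Of the peritubular and stroma markers, 8 of 8 were above 0, with list means from 7.46 to 7.98 in wild type and from 7.98 to 8.41 in knockout and medians of 0.14 in set 1 and 0.82 in set 2. Sertoli markers, 7 of 8 above 0, ran from 7.14 to 7.19 in wild type and from 7.44 to 7.47 in knockout. Leydig markers, 6 of 6 above 0, ran from 8.60 to 8.86 and from 8.76 to 9.20, and adipose markers, 4 of 4 above 0, from 5.47 to 6.13 and from 6.40 to 6.71. Endothelial markers, 6 of 10 above 0, ran from 5.54 to 5.61 and from 5.55 to 5.71. The adipose means rest largely on Fabp4, which differed by 2.21 (limma adjusted p = 0.188), against a list median of 0.37. At an unadjusted p under 0.05 in limma, 4 of 8 stroma, 4 of 8 Sertoli, 3 of 4 adipose and 2 of 6 Leydig markers were higher. The share over all genes was 8.58%. At the same threshold 1 of 10 endothelial markers and 3 of 6 spermatocyte markers were lower, against 8.72% of all genes. These spermatocyte markers were Aurkc, lower by -0.42, Ccna1 by -0.28 and Piwil1 by -0.26. The median of the spermatocyte list was -0.12, with 3 of 6 above 0 in set 1. In set 2, 0 of 6 were above 0, and Sycp3 and Sycp1 were at 0. No marker of these lists passed the threshold after adjustment, and the part of these cells in the leukocyte values was not tested.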

How the data were processed

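Whole testis RNA was read on 6 arrays, 3 per genotype. Each probe set has 1 deposited log2 value per array, on a scale recognised from its range. Per the submitters' processing notes, the authors used the software Expression Console 1.4.1 of Affymetrix. Its settings for summarizing and normalizing probes: not given in the sources used here. Precision is limited by having 3 arrays per group.

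The 64 control probe sets were left out and the other 45037 tested without a filter, in R 4.3.3 with limma 3.58.1 (lmFit on genotype, eBayes, two-sided, Benjamini-Hochberg over all probe sets, threshold 0.05). Intervals are 95% limma intervals. Genes were named from the platform annotation where a probe set had 1 symbol, and each of the 32 symbols matched its gene identifier in RefSeq (GRCm38.p6). The brightest probe set stood for a gene. Lists are described by counts and medians. The fits were tested on simulated data.

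Genes, lists and alternatives were chosen with earlier results of these data known. Every measured gene was named, with all arrays for those that passed the threshold, those with unadjusted p under 0.05 or groups without overlap, and the defining gene of each role; Tyrobp, Lyz2, Coro1a, C1qb and C1qc were given array by array after their values were seen, as were S100a8's. Of the other leukocyte lists, the ligand partners and the Map4k family, the 2 with the lowest p were named. Il34, Map4k4, Mink1, Ctss, Ctsc, Vsig4, Timd4, Irf8 and Hpgds were named after their values were seen. Genes of the red blood cell list and of the lists of other testis cells were not named by this rule. Alternatives were blocks for replicate number, array set and title code runs, quantile normalization, median centring, trended robust moderation, array weights, a filter on dim probe sets, each array left out, other choices of probe set, and, after seeing the data, the median without Map4k1 or without dim genes. The most similar arrays differed by a root mean square of 0.17, so none was a copy.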

Additional observations from a re-analysis of the deposited data

How the results depend on the processing

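The medians over the leukocyte, macrophage lineage, and T and B cell genes were 0.21, 0.22 and 0.10. With the array set as a block they were 0.13, 0.11 and 0.16. Each moved by less than the SD between arrays (0.19, 0.27 and 0.10) under every alternative run. Those SDs are about as large as the medians, so that limit could hardly be passed. All medians kept their sign and ran from 0.11 to 0.35, from 0.09 to 0.39 and from 0.0067 to 0.18. Leaving out 1 array gave the same lowest values and highest values of 0.35, 0.38 and 0.18. Probe sets called higher numbered 0, or 1 with array weights, and 0 when any 1 array was left out. Probe sets called lower numbered 1, but 0 with the replicate number as a block (Map4k1 adjusted p = 0.0656), 0 with the title code runs as a block, and from 0 to 1 when 1 array was left out. The replicate numbers are not known to pair the arrays: deviations of same-numbered arrays correlated at 0.26, 0.07 and 0.12. The count of probe sets with an interaction of genotype and set was 0 under quantile normalization, median centring and trended moderation as well. Some uncalled differences changed sign. Adgre1 was -0.10 with the array set and -0.021 with the title runs as a block, C1qb was -0.12 and -0.077, and Cd79a was -0.12 with array weights. With 1 array left out, Adgre1 ran from -0.11 to 0.33, C1qb from -0.11 to 0.47, Cd79a from -0.085 to 0.20, Itgax from -0.085 to 0.21, Laptm5 from -0.057 to 0.19, Coro1a from -0.12 to 0.56, Lyz2 from -0.06 to 1.05 and Tyrobp from -0.012 to 0.64. The cause was not tested. Genes below the lower quartile of their array may be compressed toward 0.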

Other observations

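Mast cells, which sit in the testis capsule and interstitium, were read from genes of mast cells and granulocytes. Cpa3, the mast cell carboxypeptidase gene, stood at 4.21, 4.18 and 4.29 in wild type 1, 2 and 3 and at 4.70, 4.93 and 4.72 in knockout 1, 2 and 3, a difference of 0.56 (SE 0.10). It was 0.50 in array set 1 and 0.54 in set 2, and it did not pass (limma adjusted p = 0.125). The protease gene Mcpt4 differed by 0.12. Of the 12 genes measured, 10 were above 0 and 0 passed, with a median of 0.07.

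Genes of signalling inside leukocytes did not share one direction. Of 18 measured, 11 were above 0, 0 passed the threshold, and at an unadjusted p under 0.05 in limma 2 (11.1%) were higher and 2 (11.1%) lower, against 8.58% and 8.72% of all genes. Ikzf1, a transcription factor gene of lymphocytes, differed by 0.38 (limma adjusted p = 0.198). Inpp5d, which encodes the lipid phosphatase SHIP1 of blood cells, stood at 6.84, 6.85 and 6.89 in wild type and at 6.56, 6.63 and 6.5 in knockout, a difference of -0.30 (limma adjusted p = 0.217). Like Map4k1, Inpp5d was lower in both array sets, at -0.28 and -0.32, and the likeness was noticed after the values were seen.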
